A study of Mus musculus with 2 samples.

Results

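The genes described here are 10 members of the pericentral Wnt programme of the liver, taken by symbol from the 32285 genes of the count matrices. They comprise 8 targets of Wnt/β-catenin signalling in hepatocytes (*Glul*, *Slc1a2*, *Oat*, *Tbx3*, *Lgr5*, *Axin2*, *Rnf43* and *Znrf3*) and 2 secreted ligands (*Rspo3* and *Wnt2*). Gene expression was measured by 3′ single-nucleus RNA-seq (snRNA-seq) of sorted liver nuclei from male C57BL6/J mice with metabolic dysfunction–associated steatohepatitis (MASH). All mice had eaten a diet giving 40 kcal% as fat and 20 kcal% as fructose, to which 2% cholesterol was added, for 5 months, starting at 10–12 weeks of age. There were 2 libraries, 1 from *Themis* flox/flox mice (Flox) and 1 from *Themis* Alb-Cre mice (HKO), in which Cre is expressed from the albumin promoter and so acts in hepatocytes. Each library was made from pooled tissue of several mice, so the animals cannot be separated and genotype cannot be told apart from any other difference between the libraries.

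Wnt ligands and R-spondin 3 made by cells around the central vein act on the nearest hepatocytes, in which β-catenin then switches on the pericentral genes. R-spondins bind LGR receptors and clear the ubiquitin ligases RNF43 and ZNRF3, which otherwise remove Frizzled receptors from the cell surface. The liver lobule is divided in this way into a pericentral zone of glutamine synthesis and drug metabolism and a periportal zone of urea and glucose synthesis.

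The library labelled Flox held 9363 barcodes and 58171337 UMIs, and that labelled HKO held 10748 barcodes and 40475938 UMIs; 27 barcode sequences occurred in both. Nuclei were typed by the marker UMIs they carried, which gave 6128 and 4593 hepatocyte nuclei, 807 and 1267 endothelial nuclei and 865 and 1233 hepatic stellate cell (HSC) nuclei in the Flox-labelled and HKO-labelled libraries, an order kept for all pairs of values below. The median depth was 7539 and 6003 UMIs in hepatocytes, 1361 and 987 in endothelial nuclei, and 1797 and 1450 in HSCs. The defining markers were present in each type, and none of the 10 hepatocyte, 14 endothelial or 13 HSC markers was at 0 in its own type. As the same markers typed the nuclei, their presence is no separate check of the types. *Themis*, the targeted gene, was at 159 CPM (UMIs of a gene in the summed nuclei, scaled to a total of 1000000 UMIs) and 253 CPM in hepatocytes, a ratio of 1.59 (95% interval 1.54–1.64), higher and not lower in the library labelled HKO. Reads from the 3′ end check a deletion only where the deleted part lies there, and the labels are therefore given as labels throughout. With 1 library per group no test between the groups was possible. All intervals are at the 95% level and cover counting error only, and each ratio divides the HKO-labelled by the Flox-labelled level.

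On GRCm38 with GENCODE M21 gene models, *Glul* lies at chr1:153899944-153909723 on the plus strand, *Slc1a2* at chr2:102658659-102790784 (plus), *Oat* at chr7:132557478-132576398 (minus) and *Tbx3* at chr5:119670669-119684724 (plus). *Lgr5* lies at chr10:115450311-115587780 (minus), *Axin2* at chr11:108920349-108950783 (plus), *Rnf43* at chr11:87662722-87735539 (plus) and *Znrf3* at chr11:5276324-5444847 (minus). The ligand genes *Rspo3* and *Wnt2* lie at chr10:29452416-29535867 (minus) and chr6:17988940-18030585 (minus). Annotated genes overlap 8 of the 10, all but *Znrf3* and *Wnt2*, and whether UMIs came from or were lost to those neighbours was not tested. *Glul* overlaps *Mir8114* and *Rspo3* overlaps *Gm20276*, each on the same strand. *Slc1a2*, *Tbx3*, *Axin2* and *Rspo3* each also overlap an antisense gene, and *Glul* and *Lgr5* a coding gene on the opposite strand. *Rnf43* overlaps a small nuclear RNA and an intronic transcript, and *Oat* overlaps *Fgfr2* on its own strand and has a processed pseudogene.

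Promoter windows of 300 bases (250 before to 50 after the annotated start) were found for 6 of the 10 genes in the RefSeq table for GRCm38.p6. They were searched on both strands for the 7-base word ATCAAAG and its variant with another first base, TTCAAAG, the short core recognised by the TCF/LEF factors that carry β-catenin to DNA. No window of the 6 held both. *Slc1a2* alone of the 6 held a match, to ATCAAAG, which was present in 1225 of 32851 mouse promoter windows (3.73%), while TTCAAAG was present in 1687 (5.14%). The windows of *Slc1a2* (chr2:102706188-102706487, plus strand) and of *Glul* (chr1:153899679-153899978, plus strand), the pair of targets most often detected together below, are printed 5′ to 3′ with the matched word in capitals. The *Slc1a2* window belongs to a start inside the longer gene model above. A match is a description of the letters, and its absence from the *Glul* window concerns that window only.
Slc1a2: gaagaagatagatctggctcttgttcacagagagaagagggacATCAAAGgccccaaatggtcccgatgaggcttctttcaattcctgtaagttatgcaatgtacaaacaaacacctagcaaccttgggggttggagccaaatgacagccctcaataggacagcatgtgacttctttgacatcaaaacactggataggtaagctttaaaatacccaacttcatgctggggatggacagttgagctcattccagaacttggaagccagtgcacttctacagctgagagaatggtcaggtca
Glul: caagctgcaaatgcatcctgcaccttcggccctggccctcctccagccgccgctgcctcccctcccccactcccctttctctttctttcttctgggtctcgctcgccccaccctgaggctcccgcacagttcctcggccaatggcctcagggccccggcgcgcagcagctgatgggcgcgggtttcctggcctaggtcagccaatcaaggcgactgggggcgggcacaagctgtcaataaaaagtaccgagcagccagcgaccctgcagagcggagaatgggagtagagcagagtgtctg

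*Rspo3*, which encodes the R-spondin that amplifies Wnt signals, was expressed by HSC and endothelial nuclei, and its level was lower in the library labelled HKO in both. In HSCs it was at 812 CPM (771.5–855) in the Flox-labelled and 365 CPM (339–391) in the HKO-labelled library, a ratio of 0.449 (0.411–0.490). In endothelial nuclei it was at 498 CPM and 350 CPM, a ratio of 0.702 (0.628–0.785). There the summed endothelial markers were at 10750 and 9117 CPM with none of 14 at 0, the summed hepatocyte markers at 3601 and 2314 CPM with none of 10 at 0, and 5 of 6 sinusoidal markers were lower; their part in the endothelial ligand ratios was not tested. Hepatocytes held 0.464 and 0.644 CPM, and no other type with at least 50 nuclei in both libraries came near the HSC and endothelial levels. The order was HSC above endothelial in each library, although the intervals of the pair overlapped in the HKO-labelled one. Of all *Rspo3* UMIs, 2440 and 1527, HSCs held 60.8% and 50.2% and endothelial nuclei 30.1% and 36.9%.

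*Wnt2*, a Wnt ligand of liver endothelium, had a narrower source. It was at 120 CPM (103–139) and 74.5 CPM (61.8–89.1) in endothelial nuclei, a ratio of 0.621 (0.488–0.787). HSCs held 0 UMIs of *Wnt2* in either library, which allows up to 1.64 and 1.43 CPM, and hepatocytes held 3 and 8 UMIs. Endothelial nuclei carried 82.3% of the 215 and 77.9% of the 154 *Wnt2* UMIs. The plot of levels by cell type shows the ligands and the targets on opposite sides, with the 2 ligands outside hepatocytes and most targets highest within them.

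**Figure D1:**
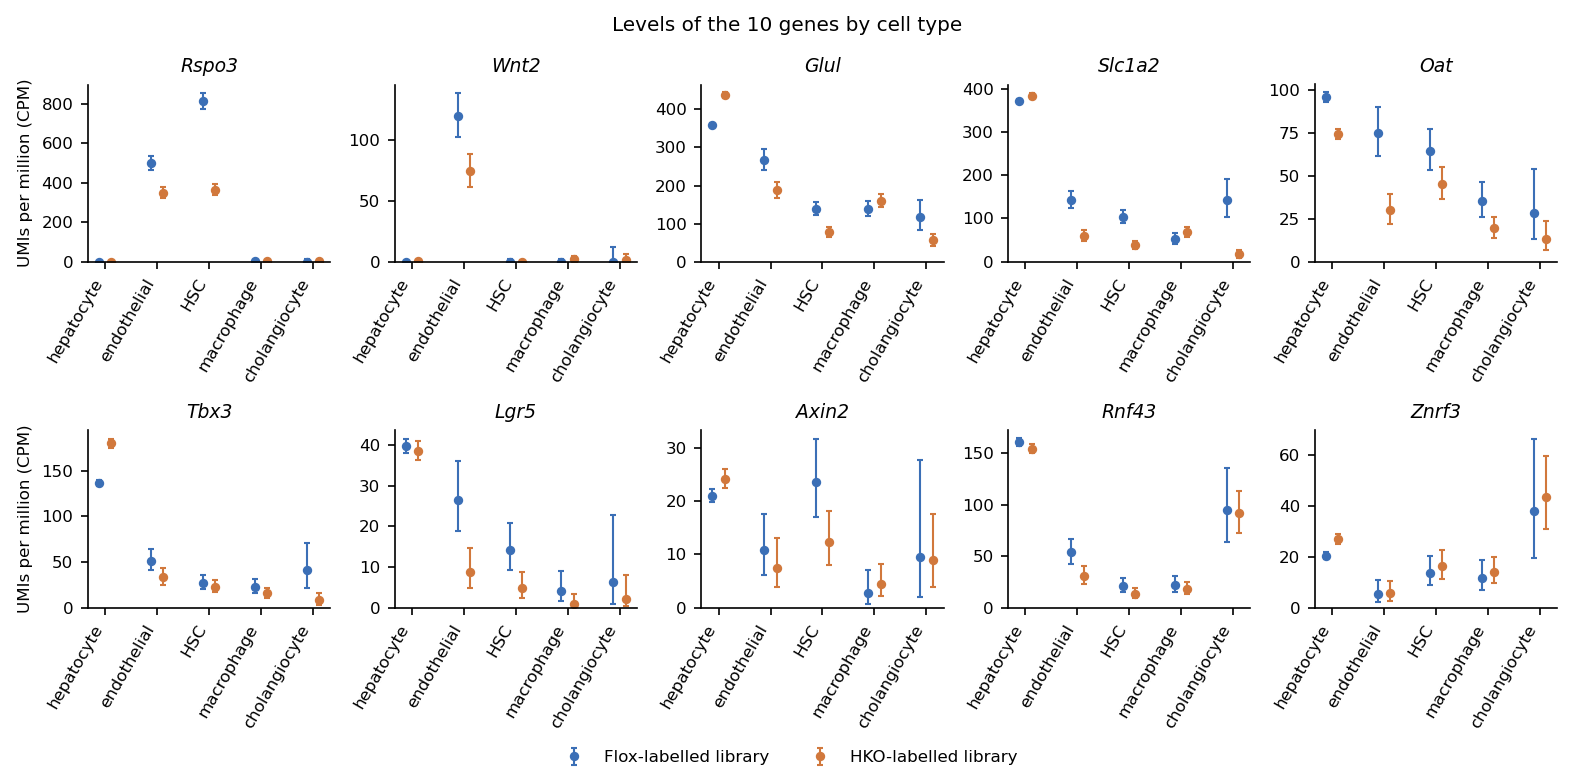
Level of each of the 10 genes (y axis, CPM, linear from 0) in 5 cell types of the Flox-labelled and HKO-labelled libraries, where points are summed nuclei of 1 library and bars are exact 95% Poisson intervals. *Rspo3* stands at 812 and 365 CPM in HSC nuclei and *Wnt2* at 120 and 74.5 CPM in endothelial nuclei, while *Glul* stands highest in hepatocytes at 358 and 438 CPM.

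Read against all genes, a ratio at or under 1/1.5 was found for 8.42% of 3420 genes in HSCs and 5.92% of 3106 genes in endothelial nuclei, and one of at least 1.5 for 2.95% and 3.38%. By that cut *Rspo3* was lower in HSCs and *Wnt2* in endothelial nuclei, while *Rspo3* in endothelial nuclei fell short of it. In nuclei thinned to 500 UMIs the log2 ratio of *Wnt2* was −0.52 (−1.14 to 0.089), which no longer passed the cut and whose interval included 0. The share of nuclei with *Rspo3* was also lower in HSCs, at 607 of 865 (70.2%) against 468 of 1233 (38.0%). After each nucleus was thinned to 500 UMIs the shares were 33.1% (29.9–36.3) and 17.7% (15.6–19.9), so the difference remained at equal depth. In endothelial nuclei the thinned shares were 11.0% (8.95–13.4) and 9.47% (7.91–11.2), with overlapping intervals. As the background in a type at the floor of its expression, 0.114% and 0.0218% of hepatocyte nuclei thinned to 1000 UMIs carried *Rspo3*. *Wnt2* was seen in 4.96% (3.56–6.69) and 3.79% (2.81–4.99) of thinned endothelial nuclei, and these intervals overlapped as well.

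HSC markers moved in the same direction as *Rspo3* in HSCs. Of 13 HSC markers, 10 were lower in the library labelled HKO, with a median ratio of 0.773 (range 0.479–1.39), and their summed level was 16640 and 11480 CPM. *Dcn*, which encodes decorin, was at 4253 and 2097 CPM (ratio 0.493), *Col14a1*, a fibril-associated collagen, at 1837 and 879.5 CPM (0.479) and *Colec11*, a lectin, at 939 and 489 CPM (0.521), close to the ratio of *Rspo3*. *Col1a2*, a chain of type I collagen, was higher, at 583 and 810 CPM (1.39). Of 5 genes listed for pericentral HSCs 2 were higher and 3 lower, *Adamtsl2* being at 192 and 325.5 CPM (1.70), and of 5 listed for portal HSCs 1 was higher and 4 lower. The summed level of hepatocyte markers in HSC nuclei was 2950 and 1907 CPM with none of the 10 at 0, and that of cholangiocyte markers 235.5 and 321 CPM with 1 and 3 of 9 at 0. The part of any of these in the *Rspo3* ratio was not tested.

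The endothelial nuclei were divided by marker UMIs into sinusoidal nuclei (665 and 899), vascular nuclei of the larger vessels (60 and 95) and nuclei with neither set (82 and 273). In endothelial nuclei thinned to 500 UMIs the vascular marker *Ptgis* and the sinusoidal marker *Cd209b* had 0 UMIs, and vascular *Cpe* was nearly absent. *Ltbp4* was on both the vascular and the periportal list. *Rspo3* was densest in the vascular nuclei, at 2961 CPM (2599–3358) and 2747 CPM (2459–3060), a ratio of 0.928 (0.784–1.10). In sinusoidal nuclei it was at 290 CPM (261–320) and 83.0 CPM (67.6–101), a ratio of 0.287 (0.228–0.358). The lower endothelial level in the HKO-labelled library thus lay in the sinusoidal nuclei and in those with neither set, which were at 1212 and 503 CPM (0.415, 0.321–0.537), while the vascular interval included 1. Of the nuclei with neither set, 20 of 82 (24.4%, 15.6–35.1) and 52 of 273 (19.05%, 14.6–24.2) carried *Rspo3*, with overlapping intervals. The richest 5 of these held 49.15% and 23.7% of the *Rspo3* UMIs of that set. *Rspo3* was carried by 35 of 60 (58.3%) and 59 of 95 (62.1%) vascular nuclei but by 78 of 665 (11.7%) and 55 of 899 (6.12%) sinusoidal nuclei. The 5 sinusoidal nuclei richest in *Rspo3* held 26.7% and 22.5% of its sinusoidal UMIs. The share of vascular nuclei was alike, at 7.43% and 7.50%, while that of nuclei with neither set was 10.2% and 21.6%.

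*Wnt2* was less concentrated in the vascular nuclei. It was at 117 CPM (99.4–138) and 68.3 CPM (54.5–84.6) in sinusoidal nuclei, a ratio of 0.582 (0.441–0.765), and at 122 CPM (58.7–225) and 149 CPM (88.5–236) in vascular nuclei, from 10 and 18 UMIs. The vascular and sinusoidal intervals overlapped in the Flox-labelled library and not in the HKO-labelled one, where the vascular level was higher. *Wnt9b*, another endothelial Wnt ligand of the pericentral area, was at 159 and 149 CPM in vascular nuclei from 13 and 18 UMIs, and at 12 UMIs against 1 UMI in sinusoidal nuclei (ratio 0.0878, 0.00205–0.593). In the sinusoidal nuclei 6.39% of 2568 genes had a ratio at or under 1/1.5, a cut past which both *Rspo3* and *Wnt2* lay. Among genes listed for the zones of the sinusoid, 6 of 7 pericentral ones were lower and 1 higher in the sinusoidal nuclei (median ratio 0.756), and 4 of 6 periportal ones were higher and 2 lower (1.19). Of the pericentral ones, *Cdh13* (125 and 65.9 CPM, 0.527), *Ptgs1* (162 and 120 CPM, 0.737) and *Kit* (349 and 281 CPM, 0.806) were lower. The periportal *Dll4*, a Notch ligand, was at 88.0 and 138 CPM (1.57, 1.23–2.01) and *Efnb2*, an ephrin ligand, at 134 and 172 CPM (1.28), while *Adgrg6*, an adhesion receptor, was at 21.6 and 15.4 CPM (0.715, 0.377–1.33) and *Ltbp4* at 257 and 237.5 CPM (0.924, 0.787–1.08). Pericentral *Fabp4*, in contrast, was higher, at 435 and 538 CPM (1.24), and pericentral *Thbd* was at 65.6 and 63.4 CPM (0.967, 0.702–1.33). In vascular nuclei 3 of the 7 pericentral genes were higher and 4 lower (median ratio 0.939). Of the 6 periportal ones 0 were higher and 6 lower there (0.481). The intervals of *Efnb2* (0.281–1.08), *Ltbp4* (0.607–1.14) and *Ntn4* (0.507–1.33) included 1, and those of *Dll4*, *Msr1* and *Adgrg6* did not. In nuclei with neither set, 1 pericentral gene was higher and 6 lower (0.783), and 3 periportal ones were higher and 3 lower (0.896). The shares of all genes above and below a ratio of 1 were not counted in any of the subsets.

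**Figure D2:**
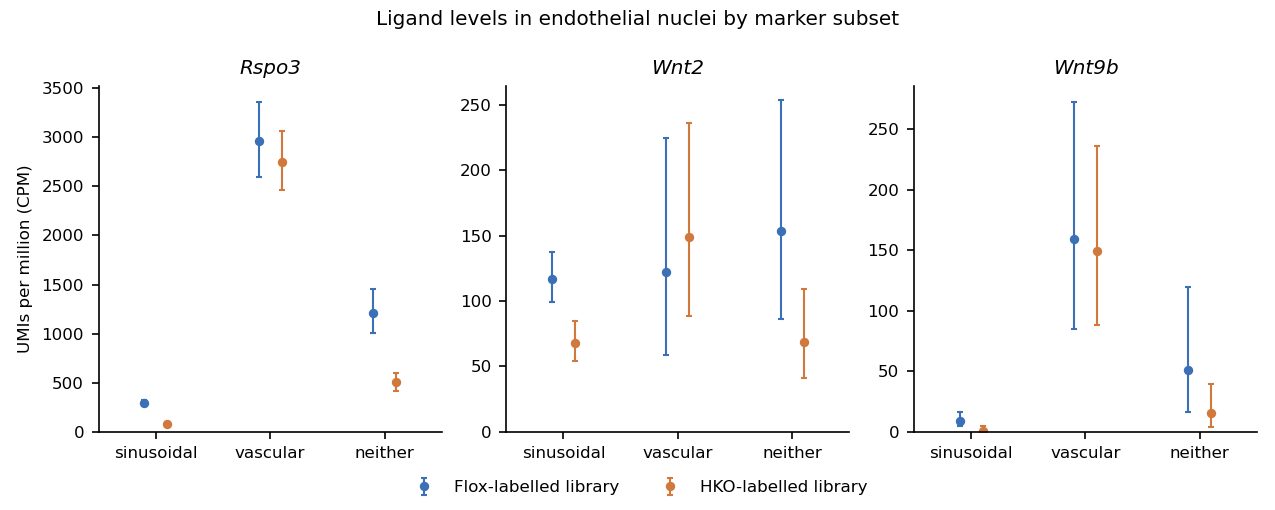
Levels of *Rspo3*, *Wnt2* and *Wnt9b* (y axis, CPM, linear from 0) in sinusoidal nuclei, vascular nuclei and nuclei with neither marker set of each library, with exact 95% Poisson intervals. *Rspo3* is near 2961 and 2747 CPM in vascular nuclei of the libraries and at 290 and 83.0 CPM in sinusoidal nuclei, whereas *Wnt2* is at 117 and 68.3 CPM in the sinusoidal ones.

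The genes most like *Rspo3* within endothelial nuclei were found by the ratio of their CPM in nuclei with *Rspo3* (89 and 120 after thinning) to those without, taking the smaller of the 2 libraries' ratios. The 5 leading genes were *Fmo2*, a flavin monooxygenase (ratios 101 and 58.1), *Bmp4*, a BMP ligand (40.3 and 39.0), *Samd5* (113 and 31.1), *Vwf*, which encodes von Willebrand factor of larger vessels (14.98 and 16.7), and *Rnf165* (96.8 and 14.9). Several of these rest on few UMIs in the nuclei without *Rspo3*, as few as 1 for *Samd5* and *Rnf165* in the Flox-labelled library. *Wnt9b* was 18.8 (4.30–113) and 38.2 (7.63–370) times as high in nuclei with *Rspo3*, from 7 against 3 and 8 against 2 UMIs. *Stab2*, a scavenger receptor of sinusoidal endothelium, was 0.527 and 0.282 times as high. Of the 7 listed pericentral genes 7 and 6 were higher in nuclei with *Rspo3*, the exception being *Kit* at 0.517 (0.219–1.045) in the HKO-labelled library. In the Flox-labelled library the intervals of *Kit* (0.995–2.52) and *Thbd* (0.3725–3.15) included 1. Of the 6 periportal ones 5 and 4 were lower, with *Msr1*, a scavenger receptor gene, at 0.0607 and 0.0885, and *Adgrg6* higher at 2.07 and 1.59. The intervals of *Adgrg6*, *Ltbp4* and *Ntn4* included 1 in each library, and that of *Dll4* in the Flox-labelled one. The share of all genes that were higher in nuclei with *Rspo3* was not counted. *Vwf* was among the genes that defined the vascular nuclei and *Stab2* among those that defined the sinusoidal ones.

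Nuclei with *Wnt2* (40 and 48 after thinning) were less distinct from the other endothelial nuclei. The 5 most like genes were *Kit*, a receptor tyrosine kinase (2.23 and 2.70), *Rspo3* itself (2.09 and 1.96), *Slc38a6* (2.01 and 1.94), *Canx*, the chaperone calnexin (1.86 and 1.95), and *Wwc2* (1.72 and 1.91). Each rested on 10 to 21 UMIs in the nuclei with *Wnt2*. In HSCs the genes most like *Rspo3* were *Magi1* (3.37 and 2.87), *Nudt5* (2.47 and 2.24), *Cdk16* (2.70 and 2.05), *Bcar1* (1.84 and 1.97) and *Crim1* (2.02 and 1.84), each from 10 to 24 UMIs in the nuclei with *Rspo3*. These ratios were below those of the 5 genes most like *Rspo3* in endothelial nuclei.

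Among the targets, *Glul* encodes glutamine synthetase, which fixes ammonia in the hepatocytes next to the central vein. It was at 358 CPM (353–363) and 438 CPM (430–445) in hepatocytes, a ratio of 1.22 (1.19–1.25). *Slc1a2*, the glutamate transporter that supplies that enzyme, was at 372 and 384 CPM (1.03, 1.01–1.06). *Oat*, the mitochondrial ornithine aminotransferase, was at 95.6 and 74.1 CPM (0.775, 0.737–0.816), the lowest ratio of the 8. *Tbx3*, a T-box transcription factor, was at 136 and 180 CPM (1.32, 1.27–1.37). These metabolic and regulatory targets thus differed in direction, with *Glul* and *Tbx3* higher and *Oat* lower in the HKO-labelled library.

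The other targets act on the pathway itself. *Lgr5*, a receptor for R-spondins, was at 39.8 and 38.7 CPM, a ratio of 0.971 whose interval (0.902–1.04) included 1. *Rnf43* was at 161 and 154 CPM (0.959, 0.925–0.995) and *Znrf3*, its partner ligase, at 20.4 and 27.0 CPM (1.32, 1.20–1.45). *Axin2*, the feedback scaffold of the complex that degrades β-catenin, was at 21.01 and 24.2 CPM (1.15, 1.04–1.27). Altogether 5 of the 8 targets were higher and 3 lower, with a median log2 ratio of 0.12, and in nuclei thinned to 1000 UMIs 6 were higher and 2 lower, with *Slc1a2* at a log2 ratio of −0.022, *Rnf43* at 0.076 and *Lgr5* at 0.062. Unthinned, 0 of 8 passed 1.5-fold in either direction, where 7.58% of 11325 genes were higher and 9.9% lower by that fold. Over those genes the median log2 ratio was −0.016, with quartiles of −0.27 and 0.23. The plot of ratios by gene shows the targets in hepatocytes on both sides of 1 and the ligands below it.

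**Figure D3:**
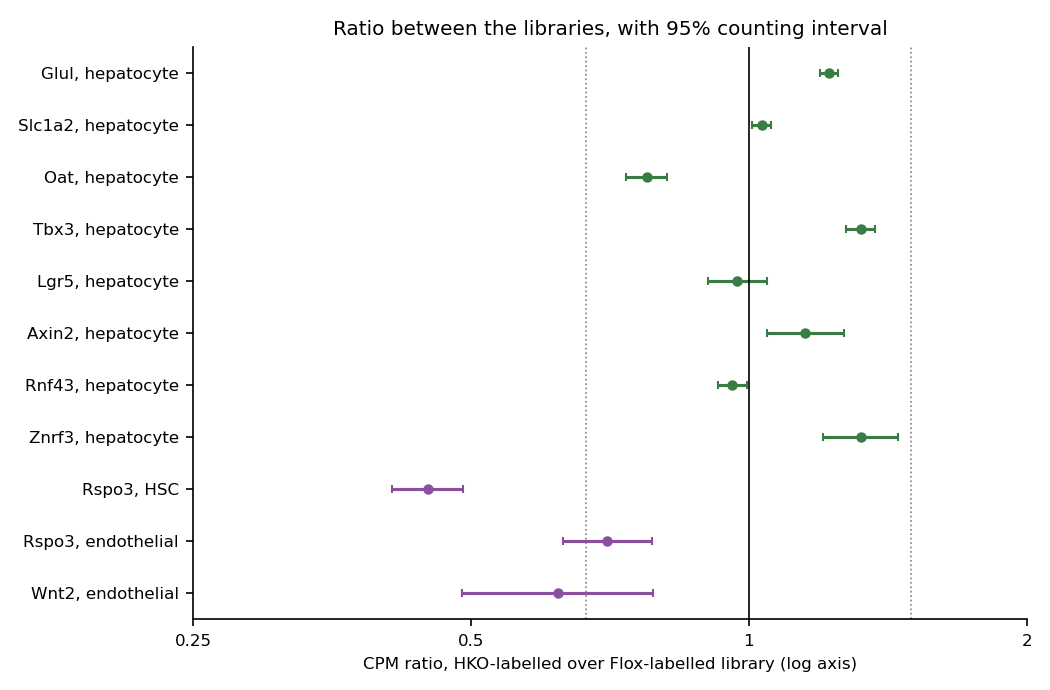
Ratio of HKO-labelled over Flox-labelled CPM (log axis) for the 8 targets in hepatocyte nuclei and for the ligands in HSC and endothelial nuclei, with exact conditional 95% intervals and dotted lines at 1.5-fold either way. The targets run from 0.775 for *Oat* to 1.32 for *Tbx3* and *Znrf3*, and the lowest ligand value is 0.449 for *Rspo3* in HSCs.

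Target UMIs were also found outside hepatocytes, where hepatocyte transcripts were common. *Alb* in endothelial nuclei stood at 55.0% and 45.2% of its hepatocyte level and in HSCs at 47.8% and 36.8%, and the median hepatocyte marker at 29.9% and 27.1% in endothelial nuclei. *Glul* in endothelial nuclei, at 267 and 187.5 CPM, was at 74.6% and 42.9% of its hepatocyte level. *Slc1a2* there was at 142 and 59.6 CPM, and all of it lay in 27 of 807 and 33 of 1267 nuclei, of which the richest 5 held 47.6% and 60.4%. When non-hepatocyte nuclei with more hepatocyte than own marker UMIs were left out, an alternative chosen after seeing the data, 752 and 1208 endothelial nuclei remained, with *Glul* at 143 and 130 CPM and *Slc1a2* at 33.0 and 18.4 CPM. In HSCs *Glul* then went from 139 to 115 CPM in the Flox-labelled library and from 77.1 to 63.4 CPM in the HKO-labelled one, and *Slc1a2* from 104 to 94.5 CPM and from 37.6 to 14.5 CPM. In macrophages *Glul* went from 138 to 122 CPM and from 160 to 138.5 CPM.

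The feedback genes differed from that pattern in some types. *Rnf43* was at 94.9 CPM (64.0–136) and 91.5 CPM (72.8–114) in cholangiocytes, from 82 UMIs in 69 nuclei in the HKO-labelled library. *Znrf3* was highest in cholangiocytes in each library, at 38.0 and 43.5 CPM against 20.4 and 27.0 CPM in hepatocytes. The cholangiocyte interval overlapped that of hepatocytes in the Flox-labelled library (19.6–66.3, from 12 UMIs) and not in the HKO-labelled one (31.0–59.5). It overlapped that of T cells in each library. *Axin2* was at 23.5 and 12.4 CPM in HSCs, the intervals of the Flox-labelled value and its hepatocyte value overlapping. With all nuclei kept, 6 of the 8 targets in the Flox-labelled library and 4 of 8 in the HKO-labelled library had their highest level in hepatocytes. With cell types from graph clusters these were 6 and 6 of 8, and with at least 500 genes per nucleus, or without the other cell types' nuclei that held more hepatocyte than own marker UMIs, 5 and 4 of 8, so the libraries did not differ in this under every setting. The share of all genes with their highest level in hepatocytes was not counted. In the HKO-labelled library *Slc1a2* and *Oat* were nominally highest in B cells and *Axin2* in T cells, with intervals that overlapped those of hepatocytes; 18 of the 19 *Slc1a2* UMIs in B cells lay in 1 nucleus of 57.

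Between hepatocyte nuclei of a library, the targets varied together. After each nucleus was thinned to 1000 UMIs, *Glul* was detected in 1023 of 6119 and 829 of 4586 nuclei. All 7 other targets were higher in the nuclei with *Glul* than in those without, by 1.5-fold or more in 7 of 7 in each library, where 6.19% of 9292 and 5.36% of 8486 genes were. The median ratio of the 7 was 4.96 and 5.08. *Slc1a2* was at 2134 CPM in nuclei with *Glul* and 132 CPM in those without in the Flox-labelled library (16.2, 14.8–17.6), and at 2241 and 66.5 CPM in the HKO-labelled one (33.7, 29.5–38.6). *Oat* was 9.99 and 10.9 times as high, *Lgr5* 7.23 and 6.90 times, *Tbx3* 4.96 and 4.19 times and *Axin2* 4.55 and 5.08 times. The ligases had the lowest ratios, 2.77 and 2.495 for *Rnf43* and 2.29 and 2.40 for *Znrf3*. The order ran from the ammonia-handling genes to the ligases in both libraries, and the nuclei with *Glul* were not the deeper ones, with medians before thinning of 6539 against 7714 UMIs and 5458 against 6093 UMIs.

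**Figure D4:**
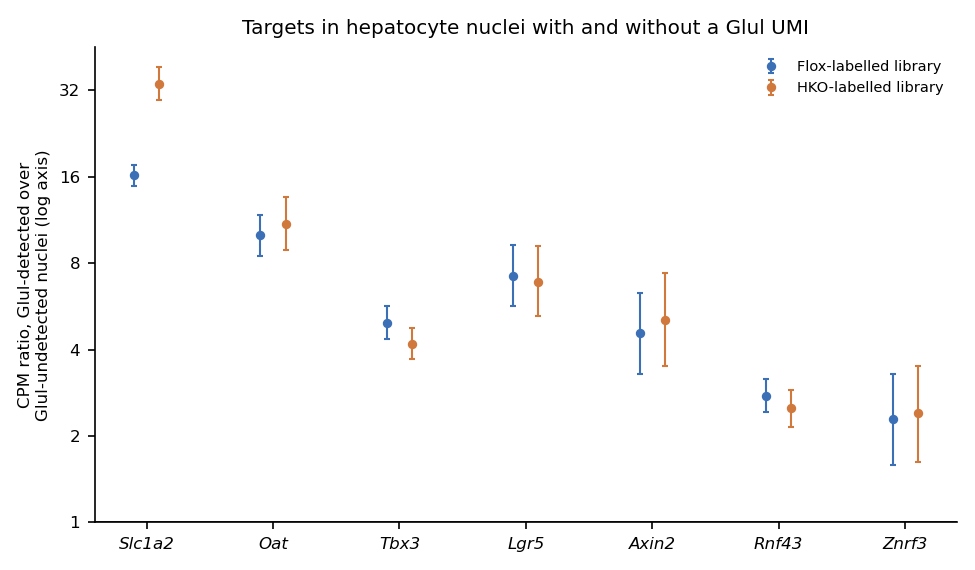
Ratio of the CPM in thinned hepatocyte nuclei with a *Glul* UMI to that in nuclei without it (log axis from 1) for the 7 other targets in each library, with exact conditional 95% intervals. All 7 targets lie above 1, from 2.29-fold for *Znrf3* to 16.2-fold for *Slc1a2* in the Flox-labelled library.

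In nuclei with *Glul*, *Slc1a2* was detected in 70.9% and 66.6%, against 5.99% and 3.51% of nuclei without it. *Tbx3* was detected in 31.9% and 41.7% against 7.91% and 11.2%, and *Oat* in 30.2% and 25.7% against 3.55% and 2.90%. At least 3 of the 7 other targets were detected together in 29.3% and 31.5% of nuclei with *Glul* and in 1.81% and 1.41% of those without. Over the 28 pairs of targets, both genes occurred in the same nucleus more often than the product of their shares in 28 of 28 pairs in each library, with a median of 2.54 and 2.19 times. The highest was *Glul* with *Slc1a2*, at 4.21 and 4.46 times, and the lowest were *Lgr5* with *Znrf3* at 1.12 times (6 nuclei) in the Flox-labelled library and *Rnf43* with *Znrf3* at 1.31 times in the HKO-labelled one. All pairs share nuclei and thinning, and nuclei are not replicates. The same count was not made for other gene pairs, so it is not read as particular to the targets.

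The other targets also varied with the number of *Glul* UMIs. *Slc1a2* was at 132, 1253, 2536, 2756 and 2724 CPM in Flox-labelled nuclei with 0, 1, 2, 3 and at least 4 UMIs of *Glul*, and at 66.5, 925, 2582, 2759 and 3341 CPM in HKO-labelled ones. It thus levelled off from 2 UMIs in the former. *Oat* went from 43.0 to 526 CPM and from 33.3 to 509 CPM between 0 and at least 4 UMIs, and *Tbx3* from 88.7 to 493 CPM and from 139 to 712 CPM. *Cyp2e1*, a cytochrome P450 of a broader pericentral area, covered a narrower range, from 1026 to 2474 CPM and from 678 to 1401 CPM. *Cyp2f2*, a periportal cytochrome P450, went from 179 CPM to 1 UMI (3.29 CPM) and from 104 CPM to 1 UMI (3.75 CPM). Strong *Glul* and *Cyp2f2* were thus almost never counted in the same nucleus at this depth.

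By the same split, the 10 genes most like *Glul* included 3 other targets, *Slc1a2*, *Oat* and *Lgr5*. *Tbx3os1*, a long non-coding RNA antisense to *Tbx3*, led the list with ratios of 22.7 and 20.2. The sources used here name a 3′ assay and Cell Ranger 8.0.1 and do not state the strand setting. Whether reads of *Tbx3os1* and *Tbx3* were mixed was not tested, and *Tbx3* itself had lower ratios. *Slc1a5*, a glutamine transporter (12.1 and 12.5), *Lhpp*, a phosphatase (7.73 and 9.97), *Prrx1*, a homeobox factor (11.6 and 7.34), and *Slc22a3*, an organic cation transporter (6.46 and 17.3), followed with 22 to 61 UMIs in the nuclei with *Glul*. The list was completed by the non-coding *Gm3289* (9.57 and 18.1) and *1700007F19Rik* (6.54 and 7.67).

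Position in the lobule was estimated without the 10 genes, from 7 pericentral and 11 periportal landmark genes. The score of a nucleus was the pericentral share of its landmark UMIs, a median of 6 UMIs, and nuclei of each library were cut into 5 bins of equal size. Since 32.5% and 34.0% of scored nuclei had a score of 0, the 2 lowest bins were in part arbitrary. All 8 targets were higher in the most pericentral than in the most periportal bin by 1.5-fold or more, as were 11.6% of 9243 and 11.0% of 8380 genes. The median ratio over the targets was 38.2 and 13.4. In nuclei thinned to 3000 UMIs it was 73.6 and 44.1, with *Glul* at 94.4 and 91.6 and *Slc1a2* at 156 and 160.

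*Glul* was at 18.2, 49.6, 214, 671 and 1306 CPM from the most periportal to the most pericentral bin of the Flox-labelled library, and at 62.7, 57.1, 164, 586 and 1722 CPM in the HKO-labelled one. Top over bottom, *Slc1a2* was 107 and 33.0 times as high, *Oat* 44.04 and 17.7 times, *Tbx3* 32.4 and 12.8 times and *Axin2* 25.02 and 6.71 times. *Lgr5* had 1 UMI in the bottom Flox-labelled bin and 141 UMIs in the top (ratio 141, 24.9–5613), and 8 and 112 UMIs in the HKO-labelled library (14.0, 6.87–33.3). The ligases again had the shallowest profile, at 3.77 and 3.15 for *Rnf43* and 2.42 and 3.003 for *Znrf3*. *Rnf43* was still at 71.1 and 95.2 CPM in the most periportal bin, against 268 and 299 CPM at the pericentral end.

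**Figure D5:**
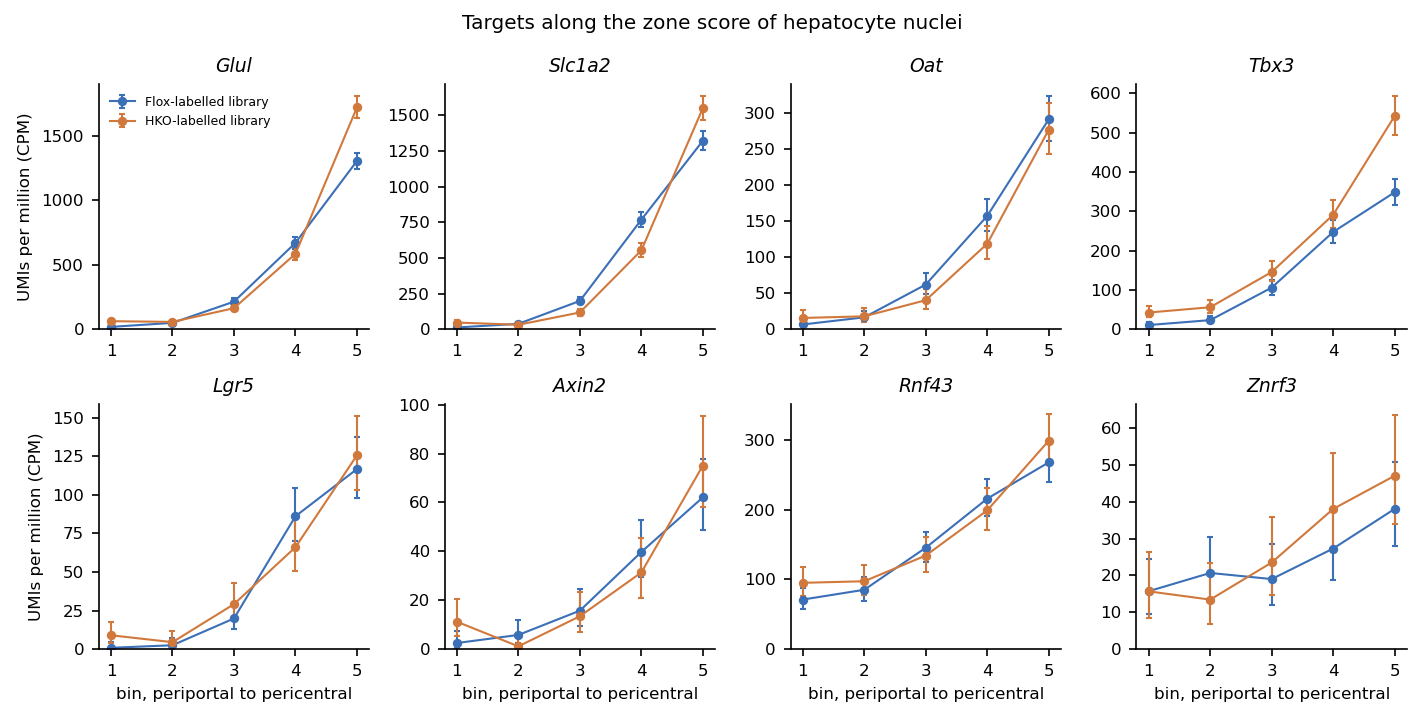
CPM of the 8 targets (y axes, linear from 0) in 5 bins of the landmark score from periportal (1) to pericentral (5) in thinned hepatocyte nuclei of each library, with exact 95% Poisson intervals. *Glul* climbs from 18.2 to 1306 CPM and from 62.7 to 1722 CPM, while *Rnf43* goes from 71.1 to 268 CPM and from 95.2 to 299 CPM.

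Between the libraries, the direction of several targets depended on the bin. In the top bin *Glul* had a ratio of 1.32 (1.23–1.42), *Slc1a2* of 1.17 (1.09–1.26) and *Tbx3* of 1.56 (1.36–1.78), and *Oat* of 0.9503 (0.804–1.12). In the middle bin *Glul* was at a ratio of 0.763 (0.619–0.938) and *Slc1a2* at 0.592 (0.466–0.748), whereas *Tbx3* was still above 1 at 1.38 (1.07–1.77). In the lowest bin *Glul* was at 3.45 (2.07–5.93), *Slc1a2* at 3.79 (2.06–7.36) and *Tbx3* at 3.96 (2.06–8.10), from 22, 15 and 13 Flox-labelled UMIs. Bins were set within each library, and the landmarks themselves differed between libraries. Of the 7 pericentral landmarks 6 were lower in hepatocytes of the HKO-labelled library, with a median ratio of 0.663 (range 0.325–1.10), and of the 11 periportal ones 6 were higher and 5 lower, with a median of 1.21. Their part in the bin ratios was not tested.

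Of 76 other genes of the Wnt pathway, 37 had at least 200 UMIs in hepatocytes, 22 of them higher and 15 lower in the HKO-labelled library, with a median log2 ratio of 0.083. Beyond 1.5-fold, 2 were higher and 5 lower, beside 7.58% and 9.9% of all genes. Among the genes for ligand secretion, *Wls*, the carrier that exports Wnt proteins, was at 1.13 and 6.71 CPM in hepatocytes (5.94, 4.39–8.13). Among transcriptional cofactors, *Bcl9l*, a β-catenin partner, was at 85.2 and 128 CPM (1.51). Among inhibitors, *Dkk4* was at 4.22 and 0.203 CPM from 209 and 6 UMIs in 194 and 6 nuclei (0.0482, 0.0175–0.107), the lowest ratio of the 37. Among further targets, *Sp5*, a transcription factor, was at 7.87 and 3.76 CPM (0.478) and *Lect2*, a secreted hepatocyte factor, at 35.9 and 22.0 CPM (0.613). The P450 genes *Cyp2e1* (1171 and 777 CPM, 0.663) and *Cyp1a2* (62.9 and 32.3 CPM, 0.513), which were also landmarks, were lower as well. Wnt-responsive genes of hepatocytes thus differed in direction, with *Dkk4*, *Sp5*, *Cyp2e1* and *Cyp1a2* lower and *Glul*, *Tbx3* and *Axin2* higher. The log2 interval of *Axin2* included 0 without the highest Scrublet scores (0.131, −0.0081 to 0.281) and in thinned nuclei (0.079, −0.27 to 0.43).

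The other pathway genes with at least 200 UMIs in hepatocytes lay within 1.5-fold. The gene with the highest CPM in each role was *Wnt5b* of the ligands (9.14 and 6.27 CPM), *Lrp6* of the receptors (214 and 196 CPM), *Notum*, a Wnt deacylase, of the inhibitors (84.6 and 70.0 CPM), *Csnk1a1* of signal transduction (253 and 313 CPM) and *Tcf7l2* of the transcription factors (329 and 355 CPM). *Rspo1*, the only other R-spondin counted there, had 0 and 0.0339 CPM.

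In endothelial nuclei 12 pathway genes reached 200 UMIs, 4 higher and 8 lower, with a median log2 ratio of −0.28. Beyond 1.5-fold 2 were lower, beside 5.92% of all genes: *Gsk3b*, the kinase that marks β-catenin for degradation (385 and 254 CPM, 0.659), and *Cyp2e1* (0.439), a hepatocyte gene. *Wls* was at 194 and 155 CPM (0.8002, 0.673–0.951), *Lrp6* at 242 and 190 CPM, *Kremen1* at 50.2 and 31.0 CPM, *Csnk1a1* at 532 and 513 CPM and *Tcf7l2* at 225 and 294 CPM, and *Wnt9b* led the other Wnt ligands at 20.3 and 14.3 CPM. In HSCs 15 genes reached 200 UMIs, 8 higher and 7 lower, with a median log2 ratio of 0.045. There *Nkd1*, a feedback inhibitor of the pathway, was at 84.4 and 47.6 CPM (0.564, 0.434–0.730), *Cyp2e1* was at a ratio of 0.438, and these 2 lay beyond 1.5-fold, beside 8.42% of all genes. *Wnt4* led the ligands of HSCs at 116 and 94.2 CPM (0.812), *Wls* was at 300.2 and 250 CPM (0.834), *Lrp6* at 172 and 177.5 CPM, *Csnk1a1* at 842 and 926 CPM and *Tcf7l2* at 427 and 385.5 CPM. *Rspo1* had 2 and 1 UMIs and *Rspo2* 2 and 0 UMIs in HSCs, and *Rspo1*, *Rspo2* and *Rspo4* had 0 in endothelial nuclei, so *Rspo3* made up nearly all R-spondin UMIs of these types.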

How the data were processed

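The authors deposited 1 matrix of unnormalized UMI counts (genes by barcodes) per library. They had mapped the reads to mm10 (GRCm38) transcripts by Cell Ranger 8.0.1 and left intronic reads out. Samples were grouped by their genotype field, since the title of the Flox-labelled library also carries the word WT. The genes and all gene lists were chosen with earlier results of these data known. The authors' own cell annotation was not used here, and the types are resemblances told by markers.

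Barcodes with at least 300 detected genes were kept (9360 and 10721). A nucleus was typed by at least 3 UMIs over at least 2 markers of a type, making up at least 0.1% of its UMIs and at least 3 times those of the next type, with hepatocyte marker UMIs not above 3 times its own. Hepatocytes needed 10 marker UMIs, with markers of all other types under 0.1% of their UMIs. These thresholds were set after marker UMIs had been looked at. Nuclei that met neither rule but held at least 3 UMIs of non-hepatocyte markers, at least 0.1% of their UMIs, were left out as possible doublets. They numbered 511 and 1015 (5.46% and 9.47%), and markers of a second type were not required. A further 110 and 460 stayed unassigned. Sinusoidal and vascular nuclei needed at least 2 UMIs of their markers and more than of the other set.

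UMIs were summed per type and library into CPM, with exact Poisson intervals, exact conditional binomial intervals for ratios and Clopper-Pearson intervals for shares, all at 95%. A count of 0 is given the limit of 3 counts. UMIs of 1 library are not independent replicates. Log2 ratios carry a pseudocount of 1 CPM. Shares and splits used nuclei thinned at random to 1000 UMIs (hepatocytes) or 500 (endothelial and HSC nuclei), with shallower nuclei left out. Background counts use genes with at least 200 UMIs, or 50 after thinning. Named genes were the 10 genes, the 10 most like *Glul* (at least 20 UMIs in the nuclei with *Glul*), the 5 most like each ligand (at least 10 UMIs), pathway genes beyond 1.5-fold and the highest of each role. Other genes named were taken from the marker, zone and HSC lists after their values had been seen.

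Alternatives were graph clusters (scanpy 1.11.5, leidenalg 0.10.2), at least 500 genes, Scrublet at 0.8% per 1000 barcodes, nuclei of at least 2000 UMIs, TMM factors (edgeR 4.0.16, R 4.3.3), pseudocounts of 0.1 and 10, thinning to 3000 UMIs, and other splits, bins and landmarks. The statistics ran in Python 3.11.15 with scipy 1.17.1 and were tested on simulated data.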

Additional observations from a re-analysis of the deposited data

Results flagged for a closer look

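For 4 targets the ratio of HKO-labelled over Flox-labelled CPM lay above 1 in hepatocytes and below 1 in another cell type, with intervals on opposite sides of 1; with 1 library per group the difference was not tested. *Glul* had a ratio of 1.22 in hepatocytes, against 0.702 in endothelial nuclei, 0.556 in HSCs and 0.477 in cholangiocytes. In cholangiocytes 23 of its 37 Flox-labelled and 25 of its 50 HKO-labelled UMIs lay in 1 nucleus each. *Slc1a2* had a ratio of 1.03, against 0.418 in endothelial nuclei, 0.361 in HSCs and 0.118 in cholangiocytes, where 39 of the 45 Flox-labelled UMIs lay in 1 nucleus. *Tbx3* had a ratio of 1.32, against 0.650 in endothelial nuclei and 0.190 in cholangiocytes. *Axin2* had a ratio of 1.15, against 0.525 in HSCs, from 43 and 26 UMIs in 41 and 26 nuclei. The level of *Alb* in endothelial nuclei, as a share of that in hepatocytes, was 55.0% and 45.2%. Without the nuclei that held more hepatocyte than own marker UMIs, the endothelial ratio of *Glul* was 0.910 (0.728–1.14), that of *Slc1a2* 0.557 (0.318–0.959) and that of *Tbx3* 0.557 (0.197–1.48), and the HSC ratio of *Axin2* was 0.443 (0.245–0.778). The HSC ratio of *Glul* was then 0.551 (0.434–0.698) and that of *Slc1a2* 0.154 (0.098–0.232). With all HSC nuclei kept, *Slc1a2* lay in only 31 of 865 and 29 of 1233 of them. The richest 5 held 61.05% and 69.6% of its HSC UMIs, and for *Glul* 41.5% and 17.9%, a concentration that the intervals do not cover. In cholangiocytes the intervals of *Glul* (0.563, 0.271–1.22) and *Slc1a2* (0.444, 0.135–1.55) then included 1, and that of *Tbx3* (0.0832, 0.00169–0.841) did not.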

How the results depend on the processing

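In all 231 values were recomputed under alternatives. Of the 82 log2 ratios of single genes among them, 3 turned direction, all after thinning: *Slc1a2* was then at −0.022 (0.046 unthinned), *Rnf43* at 0.076 (−0.060) and *Lgr5*, whose interval included 0 in either case, at 0.062 (−0.042). Of the alternative values of the main results 3 moved, 0 turned direction and 48 stayed. Ligand ratios stayed if within their counting interval. Medians over targets stayed if within the span of the intervals of the middle target or targets, which is not an interval of the median. For the zone bins of the Flox-labelled library that span was 18.75–103, so 73.6 in nuclei thinned to 3000 UMIs, against 38.2, was among those that stayed. The number of targets highest in hepatocytes stayed if within 1.5 times. It went from 4 to 6 in the HKO-labelled library with graph clusters and from 6 to 5 in the Flox-labelled one with at least 500 genes. The median ratio of the targets by *Glul* in the Flox-labelled library was 6.16 when nuclei were split on *Slc1a2* and 6.03 with graph clusters, against 4.96. The median over zone bins in the HKO-labelled library was 44.1 in nuclei thinned to 3000 UMIs, against 13.4. Of the values of single genes, 145 stayed within their interval and 33 moved past it without turning. TMM shifted all hepatocyte log2 ratios by −0.037, which left *Slc1a2* at 0.0093 with an interval that included 0 (−0.025 to 0.043). Graph clusters gave the same type to 98.0% and 96.0% of typed nuclei, and Scrublet removed 7.49% and 8.58% of barcodes. No paired analysis was possible because each group held 1 library. Depth limits the vascular *Wnt2*, *Wnt9b* and lowest-bin values, which rest on few UMIs. Leaving out nuclei rich in hepatocyte markers, thinning the ligand nuclei and TMM for the ligands were added after seeing the data and kept the direction of *Rspo3* and *Wnt2*, although the thinned *Wnt2* interval included 0.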
